A study of Mus musculus with 6 samples.

Results

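The respiratory chain of the inner mitochondrial membrane was followed in rat ovary as 113 rows of a table of 22487 genes. They were chosen by a rule on name and position rather than measured levels, written with earlier results of these data known. The rule took all protein-coding rows of the mitochondrial chromosome and all rows whose gene name begins with Nduf, Uqcr, Cox4 to Cox8 or Atp5. It also took Sdha, Sdhb, Sdhc, Sdhd and Cyc1. Every row kept had a count in at least 1 library. Of these, 13 were the mRNAs of the mitochondrial genome and 100 were rows of nuclear genes. The nuclear rows comprised 76 subunit genes, 7 assembly factors of complex I (Ndufaf1 to Ndufaf7), the regulator Atp5if1, the supercomplex factor Cox7a2l, 11 rows classed here as pseudogenes or further copies and 4 rows annotated as noncoding. Rows averaging 0.5 FPKM or more were tested, and 110 of the 113 rows passed; Cox8c, Ndufa5-ps4 and Uqcr11 did not. FPKM is a fragment count divided by transcript length and library depth, so levels of different genes were compared on that scale only.

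The study sequenced mRNA from ovarian tissue of adult female rats, in 3 control libraries with no treatment and in 3 libraries from rats exposed to PM2.5, fine particulate matter, from a cowshed environment. All 6 libraries carry the genotype label WT and the figure of 30 days in their titles, which do not say what the days count; strain and dose were not given in the labels. The organism field names the mouse, whereas the titles and the gene identifiers are those of the rat. Nothing in the labels ties each library to an animal of its own; the p-values therefore cover only how far these 6 samples scatter, which may be technical. In whole tissue, fewer cells of a type and less RNA per cell cannot be told apart.

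The chain is assembled from the products of 2 genomes. Complexes I, III, IV and V each combine core subunits made inside the mitochondrion with many subunits encoded in the nucleus, whereas complex II (succinate dehydrogenase) is entirely nuclear. Complex I takes electrons from NADH, complex II from succinate, complex III passes them to cytochrome c, complex IV hands them to oxygen, and complex V makes ATP from the resulting proton gradient. In the ovary, mitochondria also house the first step of steroid hormone synthesis, and oocytes hold them in great numbers. Mitochondrial mRNAs are cut out of long transcripts of each strand of a circular genome: most lie on 1 strand, and Mt-nd6 is the only mRNA read from the other.

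The libraries held 47662338 to 60749578 counts and 19258 to 19841 detected genes each. All 7 granulosa markers and all 8 luteal markers were detected, with summed levels of 547 to 2266 FPKM in controls and 1035 to 3275 FPKM after PM2.5 for the granulosa list, and of 7651 to 14414 FPKM and 4658 to 9359 FPKM for the luteal list. No luteal, granulosa, theca or oocyte marker passed the adjusted threshold, and the group ranges of all 4 lists overlapped; the granulosa list varied several-fold within each group. Summed erythroid markers did not overlap, at 416 to 763 FPKM in controls and 1035 to 1570 FPKM after PM2.5. Of the 5 tested, 3 were called, but not Hba-a3 (-0.14 ± 0.40) or Ahsp (0.27 ± 0.45, log2 fold change, SE). Summed adipocyte markers, at a low level, all but touched, at 8.55 to 13.4 FPKM in controls and 13.9 to 36.0 FPKM after PM2.5. None of the 4 tested was called: Adipoq and Fabp4 were above 0, Cidea (-0.33 ± 0.38) and Plin1 (-0.04 ± 0.70) below. Adipoq stood at 20.1, 20.4 and 1.56 FPKM after PM2.5. Smooth muscle markers ranged from 128 to 290 FPKM in controls and from 193 to 1041 FPKM after PM2.5, highest in PM2.5 replicates 1 and 2. The part of these cell types in the values below was not tested.

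Across the 15303 genes tested with edgeR's quasi-likelihood test and adjusted by Benjamini-Hochberg, 142 genes or 0.928% passed an adjusted p of 0.05, 29 (0.19%) higher and 113 (0.738%) lower after PM2.5. Of the 110 respiratory chain rows, 1 passed, a share close to that of all genes: the complex I subunit gene Ndufa3, which was lower. At an unadjusted p below 0.05 stood 11 members (10%), 6 higher and 5 lower, beside 20.9% of all tested genes (9.17% higher and 11.7% lower). The 3 values of each group lay wholly apart, in counts scaled to library size, for 15 members (13.6%), 8 higher and 7 lower, beside 27.2% of all genes (12.1% higher and 15.2% lower). Members passed each of these unadjusted marks in a smaller share than genes in general. The direction of the fitted change was below 0 for 66 of the 110 members, and for 49.6% of all tested genes, whose median log2 fold change was 0.00.

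The 13 mitochondrial mRNAs were the most abundant transcripts of the chain, and each had a lower mean level after PM2.5. Their mean levels over the 6 libraries ran from 806 FPKM for Mt-nd3 to 19875 FPKM for Mt-co1, with a median of 4521 FPKM, against a median of 68.7 FPKM for the nuclear subunits. All 13 fitted log2 fold changes were below 0, from -0.81 to -0.05 with a median of -0.34, and none passed the adjusted threshold. The groups lay apart, all lower, for 5 of the 13 (38.5%), beside 27.2% of all tested genes. Under every scaling tried the 13 stayed below 0; with a single library left out, Mt-atp6 (up to 0.04) and Mt-co3 (0.01) stood above 0 in some fits. The size of the change divided the mRNAs by complex. The 7 mRNAs of complex I had a median log2 fold change of -0.55, and the 6 of complexes III, IV and V had one of -0.11, with no overlap between -0.81 to -0.34 and -0.16 to -0.05. Level divided them in the same way. Each complex I mRNA averaged at most 4521 FPKM (Mt-nd4) and each of the others at least 5908 FPKM (Mt-cyb), so complex and level cannot be told apart here.

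**Figure D1:**
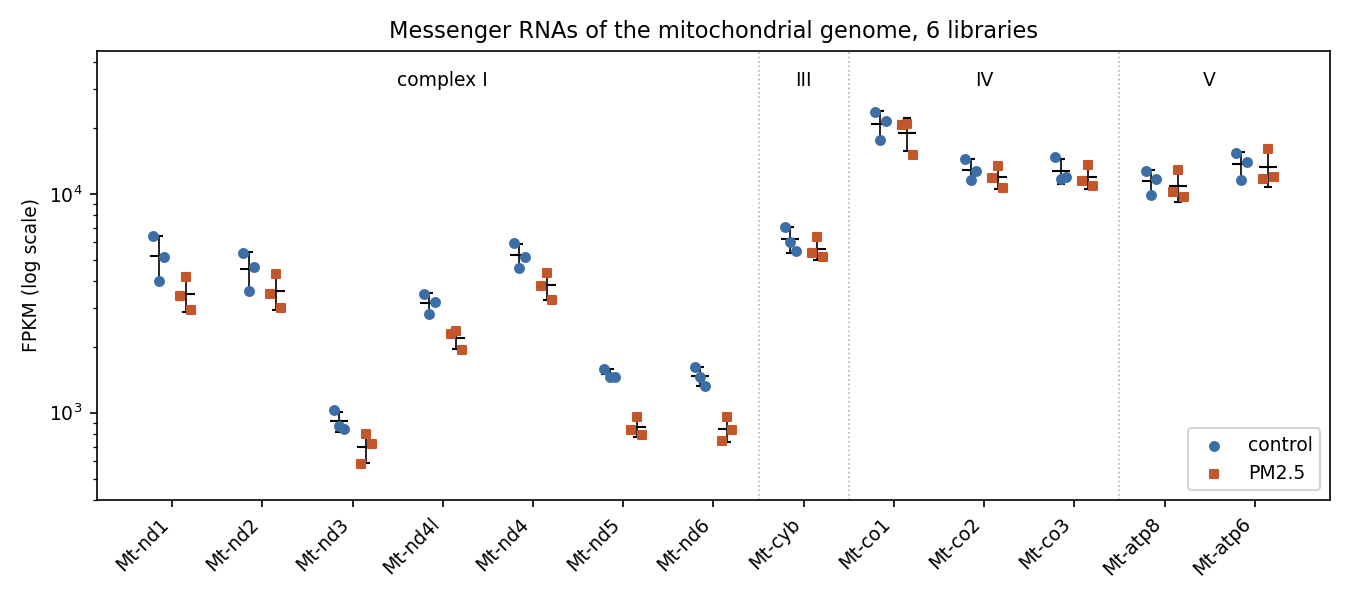
Level of each of the 13 mitochondrial mRNAs in FPKM (log axis) in 3 control and 3 PM2.5 libraries; each point is 1 library, with the group mean and SD. The libraries of the groups lie apart for Mt-nd3, Mt-nd4l, Mt-nd4, Mt-nd5 and Mt-nd6 and overlap for the other 8 mRNAs.

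The lowest values relative to control were those of Mt-nd5 and Mt-nd6, which encode membrane subunits of the proton-pumping arm of complex I. Mt-nd5 (MT:11736-13565, + strand in the deposited table, whose build was not given) stood at 1589, 1452 and 1455 FPKM in controls and at 830, 951 and 789 FPKM after PM2.5. Mt-nd6 (MT:13543-14061, - strand) stood at 1625, 1452 and 1326 FPKM in controls and at 746, 953 and 830 FPKM after PM2.5. For both genes every PM2.5 library was below every control library by a wide margin, and replicate 2 was the highest of the PM2.5 group. The log2 fold change was -0.81 ± 0.18 (SE) for Mt-nd5, with an adjusted p of 0.0864 by edgeR (quasi-likelihood test, Benjamini-Hochberg adjustment). It was -0.81 ± 0.17 (SE) for Mt-nd6, with an adjusted p of 0.0792 by the same test, so neither passed at 0.05. DESeq2 gave the same direction with adjusted p-values of 1.16e-05 and 0.000240, and called Mt-nd4l as well (0.0348). It called far more genes in general: 1767 of the 15303 tested, and 7 of the 110 members. At an unadjusted p below 0.05 by DESeq2 stood 11.8% of members, beside 23.9% of all tested genes.

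The rows of Mt-nd5 and Mt-nd6 share 23 bases on opposite strands, and Mt-nd6 lies opposite to the transcript that carries Mt-nd5 and Mt-cyb. The libraries were prepared with a protocol that marks strand, but the strand setting of the counting was not given, so reads of Mt-nd6 and of an antisense transcript over it cannot be told apart here. In controls Mt-nd5 averaged 1498 ± 78.3 FPKM and Mt-nd6 1468 ± 150 FPKM (SD, n = 3 each), levels that did not differ beyond their spread, and after PM2.5 they averaged 857 ± 84.7 FPKM and 843 ± 104 FPKM.

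The 5 other complex I mRNAs encode further membrane subunits. Mt-nd4l (MT:9870-10166, + strand) stood at 3498, 2831 and 3211 FPKM in controls and 2276, 2364 and 1931 FPKM after PM2.5, a log2 fold change of -0.55 ± 0.18 (SE). Mt-nd4 (MT:10160-11537, + strand), whose row overlaps that of Mt-nd4l by 7 bases, stood at 5968, 4601 and 5127 FPKM and at 3796, 4359 and 3280 FPKM, a log2 fold change of -0.47 ± 0.23 (SE). Mt-nd3 (MT:9451-9798, + strand), the least abundant of the 13, stood at 1024, 868 and 847 FPKM and at 582, 797 and 717 FPKM, a log2 fold change of -0.39 ± 0.17 (SE). These neighbouring genes all lay apart between the groups, although for Mt-nd3 and Mt-nd4 the nearest control and PM2.5 libraries were close.

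Mt-nd1 (MT:2740-3694, + strand) stood at 6404, 4007 and 5134 FPKM in controls and 3398, 4149 and 2936 FPKM after PM2.5, a log2 fold change of -0.58 ± 0.26 (SE). Mt-nd2 (MT:3904-4942, + strand) stood at 5343, 3587 and 4627 FPKM and at 3489, 4292 and 3004 FPKM, a log2 fold change of -0.34 ± 0.25 (SE). For these genes the low control replicate 2 fell below the high PM2.5 replicate 2, so the groups overlapped. Adjusted p-values of the 5 genes ran from 0.160 (Mt-nd4l) to 0.472 (Mt-nd2) by edgeR (quasi-likelihood test, Benjamini-Hochberg adjustment).

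Among the mRNAs of the other complexes, Mt-co1, the catalytic subunit of complex IV (MT:5323-6867, + strand), stood at 23642, 17595 and 21440 FPKM in controls and 20589, 20885 and 15101 FPKM after PM2.5. Mt-cyb, cytochrome b of complex III (MT:14136-15278, + strand), stood at 7077, 6050 and 5464 FPKM and at 5369, 6332 and 5157 FPKM. In both the groups were interleaved. The log2 fold changes were -0.16 ± 0.29 (SE) for Mt-co1, -0.12 ± 0.23 for Mt-co2, -0.10 ± 0.23 for Mt-co3, -0.15 ± 0.22 for Mt-cyb, -0.08 ± 0.21 for Mt-atp8 and -0.05 ± 0.25 for Mt-atp6. Each of the 6 changes was smaller than its SE. Mt-atp8 and Mt-atp6, the membrane subunits of ATP synthase, share 43 bases of sequence, and their rows cannot be fully separated. In order of mean level, Mt-co1 led, Mt-atp6, Mt-co2, Mt-co3 and Mt-atp8 followed with overlapping libraries, and Mt-nd5, Mt-nd6 and Mt-nd3 came last.

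Because a library with more mitochondrial RNA raises all 13 values together, ratios within a library were also taken. The summed level of the 7 complex I mRNAs over that of the other 6 was, on the log2 scale, -1.79, -1.86 and -1.83 in controls and -2.23, -2.22 and -2.23 after PM2.5. The means were -1.83 ± 0.037 and -2.23 ± 0.0083 (SD, n = 3 each), a difference of -0.40. The spread within each group was a small part of that difference, and the ratio varied less between replicates than any of the mRNA levels. The difference was -0.38 without Mt-nd6 and -0.42 without Mt-co1, and from -0.42 to -0.38 with any single library left out. The log2 ratio of Mt-nd5 to Mt-cyb alone was -2.16, -2.06 and -1.91 in controls and -2.69, -2.73 and -2.71 after PM2.5. These ratios were examined after the per-gene values had been seen and carry no test. Summed complex I mRNAs were 25451, 18798 and 21725 FPKM in controls and 15115, 17865 and 13487 FPKM after PM2.5, whereas the other 6 overlapped, at 68263 to 87849 and 63334 to 83047 FPKM.

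**Figure D2:**
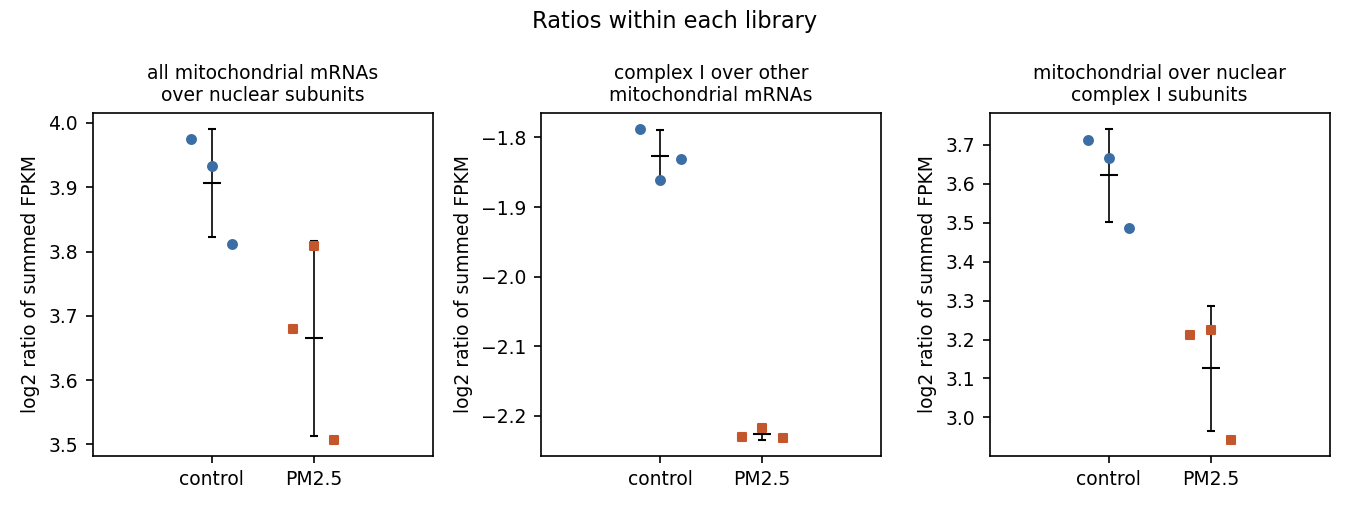
Log2 ratios of summed FPKM within each library, 3 control and 3 PM2.5 libraries, with the group mean and SD. The ratio of complex I to other mitochondrial mRNAs is near -1.83 in controls and -2.23 after PM2.5, and the mitochondrial to nuclear ratios are also lower in every PM2.5 library.

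Set against the nuclear genome, the mitochondrial mRNAs were lower after PM2.5 in each library, by a smaller amount. The log2 ratio of the summed 13 mitochondrial mRNAs to the summed nuclear subunits was 3.98, 3.93 and 3.81 in controls and 3.68, 3.81 and 3.51 after PM2.5. The means were 3.91 ± 0.085 and 3.67 ± 0.15 (SD, n = 3 each), a difference of -0.24, and control replicate 3 and PM2.5 replicate 2 all but touched. Without PM2.5 replicate 3 the difference was -0.16. Within complex I, the ratio of the 7 mitochondrial mRNAs to the nuclear subunits was 3.71, 3.67 and 3.49 in controls and 3.21, 3.22 and 2.94 after PM2.5, a difference of -0.50. The summed levels themselves overlapped: the mitochondrial mRNAs took 11.7%, 8.83% and 10.1% of all counts in controls and 8.78%, 10.1% and 7.61% after PM2.5. The nuclear subunits took 0.999%, 0.821% and 1.00% and 1.03%, 1.02% and 0.961%.

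The other rows of the mitochondrial chromosome were 22 tRNA genes and 2 rRNA genes, which are not members and which a poly(A)-selected library samples poorly. Of the 8 tRNA rows on the - strand, the strand of Mt-nd6, all 8 had a log2 fold change below 0, from -1.26 to -0.07 with a median of -0.32. Of the 12 tested tRNA rows on the + strand, 10 were above 0 and 2 below, with a median of 0.21. Nearly all of those above 0, and several of the - strand changes, were smaller than their SE. The most abundant + strand tRNA row (MT:3835-3903) was at -0.94 ± 0.39 (SE). No tRNA row passed the adjusted threshold. The summed levels of the - strand rows overlapped, at 2935 to 3935 FPKM in controls and 2505 to 3308 FPKM after PM2.5. Those of the + strand rows overlapped too, at 341 to 693 FPKM and 447 to 563 FPKM. The rRNA rows had log2 fold changes of -0.04 ± 0.21 (SE, MT:68-1025) and 0.56 ± 0.31 (SE, MT:1094-2664). Strand did not divide the mRNAs in the same way, since 6 of the 7 complex I mRNAs lie on the + strand. Across the 13 mRNAs the log2 fold change ran with the mean log2 FPKM (Pearson's r 0.83, Spearman's rho 0.77, n = 13 genes) and little with position (r -0.28, rho -0.30). These values are across genes of the same 6 libraries and are given as a description.

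**Figure D3:**
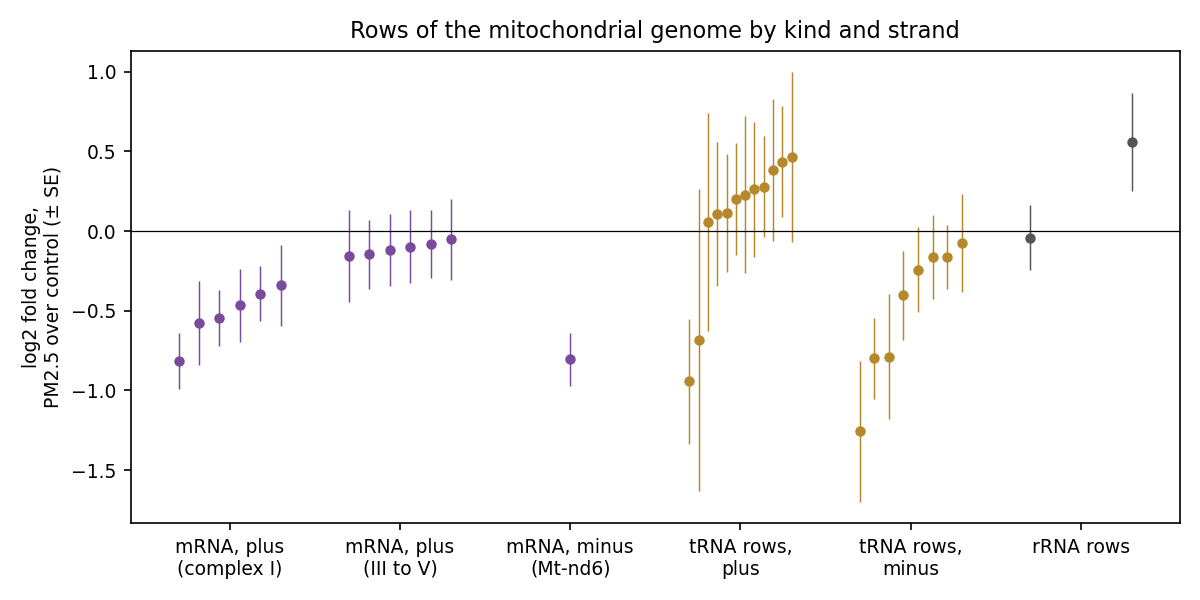
Log2 fold change (PM2.5 over control, ± SE) of the tested rows of the mitochondrial chromosome by kind and strand. The complex I mRNAs lie between -0.81 and -0.34, the other mRNAs between -0.16 and -0.05, the - strand tRNA rows below 0, and 10 of the 12 + strand tRNA rows above 0.

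The nuclear subunits showed no shared direction. Of the 75 tested, 40 had a log2 fold change below 0 and 35 above, with a median of -0.02, and 62 lay within 0.3 of 0. At an unadjusted p below 0.05 stood 8 (6 higher, 2 lower), 10.7% of the 75, beside 20.9% of all tested genes. The groups lay apart for 10 (8 higher, 2 lower), 13.3% of the 75, beside 27.2% of all tested genes (12.1% higher and 15.2% lower). Mean levels ran from 0.0954 FPKM for Cox8c to 702 FPKM for Atp5f1b, and 70 of the 76 reached 10 FPKM. By complex, the median log2 fold change was -0.02 for the 34 subunits of complex I, 0.34 for the 4 of complex II, -0.07 for the 8 of complex III, -0.05 for the 14 tested of complex IV and 0.02 for the 15 of complex V. The medians of complexes I, III, IV and V, and that of all 75, changed sign when single libraries were left out, whereas that of complex II stayed between 0.26 and 0.39.

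**Figure D4:**
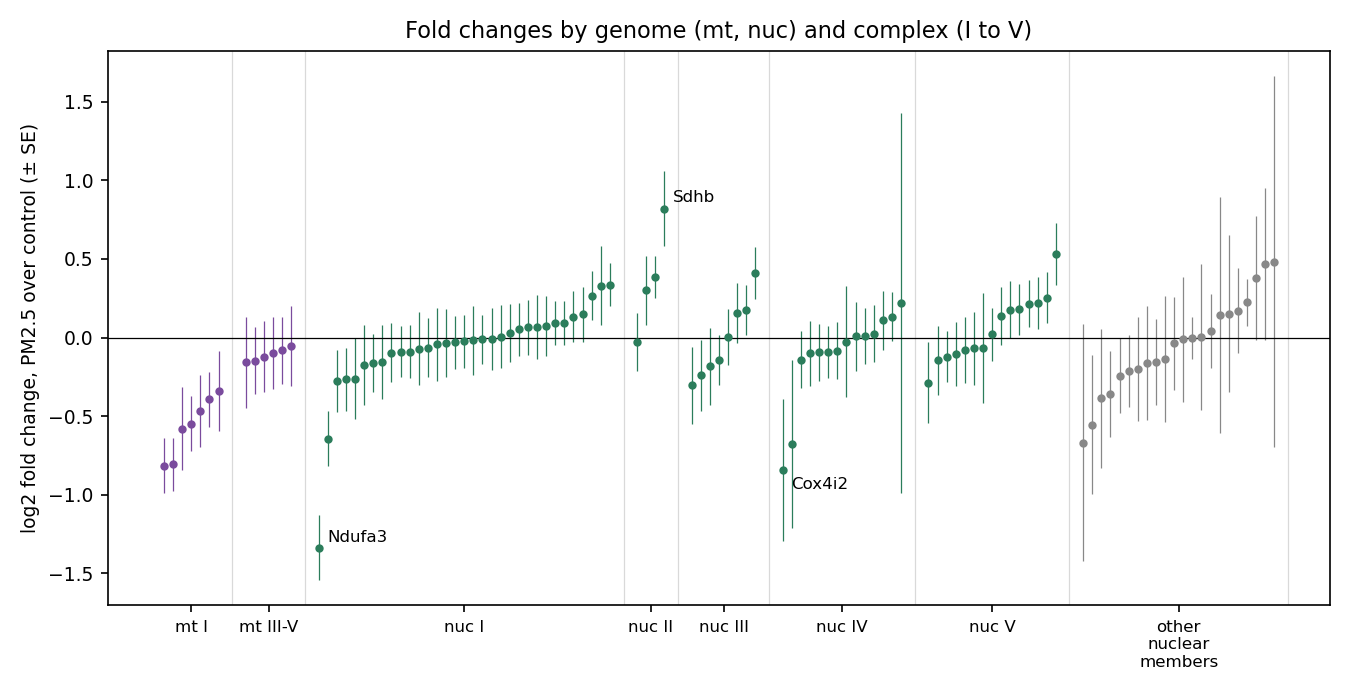
Log2 fold change (PM2.5 over control, ± SE) of the tested members reported here, ordered within its genome (mt, mitochondrial; nuc, nuclear) and complex. Most nuclear subunits sit within 0.3 of 0, with Ndufa3 farthest below, and all 7 mitochondrial complex I mRNAs sit at or below -0.34.

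Complex I held the only member that passed the adjusted threshold, Ndufa3, an accessory subunit (chromosome 1:65597578-65600235, - strand, ENSRNOG00000060293). Its level was 7.22, 7.30 and 8.00 FPKM in controls and 3.15, 2.67 and 3.15 FPKM after PM2.5, so that all PM2.5 libraries were well under the controls. The log2 fold change was -1.34 ± 0.21 (SE), with an adjusted p of 0.0463 by edgeR (quasi-likelihood test, Benjamini-Hochberg adjustment). The call was lost with any single library left out (adjusted p 0.0706 to 0.248) and with 2 other filters on low values (0.0512 and 0.0620), while the direction held. The row lies wholly inside that of Tfpt on the opposite strand (log2 fold change -0.03), its effective length of 2323 bases is most of its span of 2658 bases, and a pseudogene row, Ndufa3-ps3, was also listed (log2 fold change -0.14 ± 0.40, SE). How reads were divided among these rows was not given, and the value is uncertain to that extent.

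Ndufab1, the mitochondrial acyl carrier protein that is also a complex I subunit, was the other nuclear subunit whose libraries lay apart and lower. It stood at 36.8, 28.3 and 37.3 FPKM in controls and 19.4, 22.9 and 23.8 FPKM after PM2.5, a log2 fold change of -0.64 ± 0.18 (SE). Its adjusted p was 0.127 by edgeR (quasi-likelihood test, Benjamini-Hochberg adjustment) and 0.0368 by DESeq2.

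Other nuclear subunits of complex I had smaller differences. Ndufs3, of the hydrophilic arm, stood at 69.4, 62.4 and 68.1 FPKM in controls and 77.4, 91.9 and 84.5 FPKM after PM2.5, apart and higher, with a log2 fold change of 0.34 ± 0.14 (SE). Ndufs4, an accessory subunit of the same arm, had a log2 fold change of 0.27 ± 0.16 (SE) and was apart and higher as well. Ndufv1 and Ndufs1, which bind the flavin and iron-sulphur clusters, had log2 fold changes of 0.06 ± 0.17 and -0.07 ± 0.23 (SE). None of these passed the adjusted threshold, and the summed level of the nuclear complex I subunits overlapped between the groups, at 1480 to 1941 FPKM and 1631 to 1912 FPKM. The 7 Ndufaf assembly factors had a median log2 fold change of -0.01, and none had an unadjusted p below 0.05.

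Complex II was the only complex of the 5 whose summed nuclear subunits lay apart between the groups. Its 4 subunits summed to 299, 284 and 308 FPKM in controls and 467, 378 and 331 FPKM after PM2.5, with every PM2.5 library above the controls. That separation depended on both Sdhb and Sdhd, since the summed level of the remaining subunits overlapped between the groups when either was left out. Sdhb, the iron-sulphur subunit (chromosome 5:153264899-153314293, + strand), stood at 90.2, 75.4 and 73.9 FPKM in controls and 185, 138 and 101 FPKM after PM2.5. Sdhd, a membrane anchor (chromosome 8:50944704-50954238, - strand), stood at 56.8, 59.8 and 49.6 FPKM and at 65.2, 76.8 and 75.3 FPKM. The groups lay apart for both, with the highest Sdhb value in PM2.5 replicate 1. Their log2 fold changes were 0.82 ± 0.24 (SE) and 0.38 ± 0.13 (SE), with adjusted p-values of 0.137 and 0.175 by edgeR (quasi-likelihood test, Benjamini-Hochberg adjustment); DESeq2 called Sdhb (0.0213). The flavoprotein Sdha (0.30 ± 0.22, SE) and the other anchor Sdhc (-0.03 ± 0.18, SE) overlapped between the groups. The row of Sdhb contains that of Atp13a2 on the same strand, which covers 39.3% of it.

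**Figure D5:**
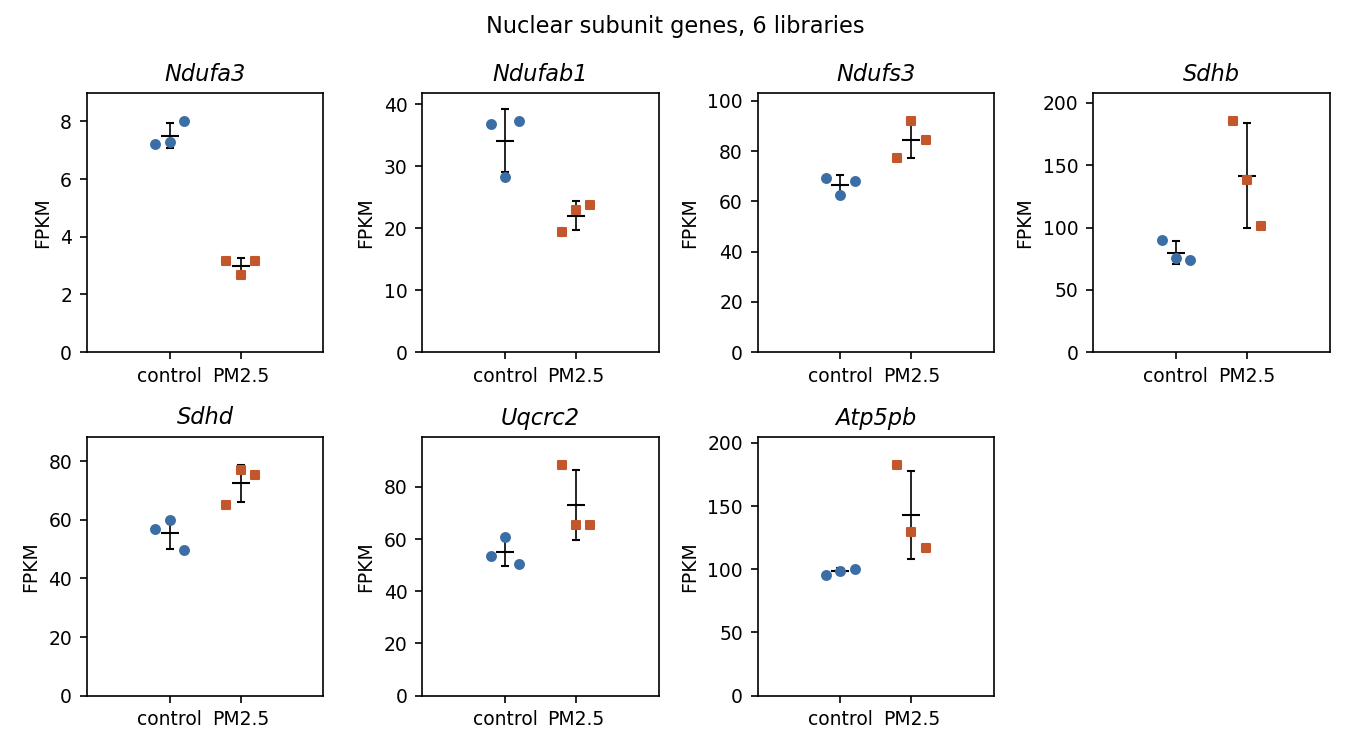
Level in FPKM of 7 nuclear subunit genes with an unadjusted p below 0.05 in 3 control and 3 PM2.5 libraries, with group mean and SD. In all 7 the libraries of the groups lie apart; Ndufa3 and Ndufab1 are lower after PM2.5 and the other 5 higher.

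In complex III, Uqcrc2, a core protein facing the matrix (chromosome 1:175167894-175199453, + strand), stood at 53.5, 60.7 and 50.4 FPKM in controls and 88.5, 65.2 and 65.5 FPKM after PM2.5. The groups lay apart, and the log2 fold change was 0.41 ± 0.17 (SE). Its partner Uqcrc1 (0.17 ± 0.16, SE), the Rieske iron-sulphur protein Uqcrfs1 (0.16 ± 0.19, SE) and cytochrome c1, Cyc1 (0.00 ± 0.18, SE), overlapped, and the lowest subunit was Uqcrq at -0.30 ± 0.24 (SE).

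In complex V, Atp5pb, the b subunit of the peripheral stalk (chromosome 2:193424047-193435418, - strand), stood at 95.8, 98.5 and 101 FPKM in controls and 183, 130 and 117 FPKM after PM2.5, a log2 fold change of 0.53 ± 0.20 (SE). Atp5f1a, the alpha subunit of the catalytic head, stood at 224, 215 and 236 FPKM and at 308, 251 and 251 FPKM, a log2 fold change of 0.25 ± 0.16 (SE). Both lay apart and were highest in PM2.5 replicate 1. The catalytic beta subunit Atp5f1b, the most abundant nuclear subunit mRNA, overlapped between the groups (0.14 ± 0.18, SE), as did the inhibitor Atp5if1 (-0.04 ± 0.29, SE) and the lowest subunit, Atp5mk (-0.29 ± 0.26, SE). Adjusted p-values of Ndufs3, Uqcrc2 and Atp5pb were 0.229, 0.231 and 0.197 by edgeR (quasi-likelihood test, Benjamini-Hochberg adjustment).

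Complex IV held no subunit with an unadjusted p below 0.05 and none whose groups lay apart. Cox4i1, the common form of subunit 4, stood at 0.13 ± 0.15 (log2 fold change, SE), the highest with a mean of at least 1 FPKM, and Cox5a at -0.10 ± 0.21. The lowest was Cox4i2, the form of subunit 4 known for its expression in lung and under low oxygen. It was listed at 15.8, 6.75 and 21.4 FPKM in controls and 6.86, 7.80 and 10.3 FPKM after PM2.5, a log2 fold change of -0.84 ± 0.45 (SE). Controls spanned the PM2.5 values, with control replicate 2 the lowest of the 6. Ndufa4l2, a paralogue of the complex IV subunit Ndufa4 that is also induced by low oxygen, was listed at 7.58, 5.04 and 16.4 FPKM and at 8.51, 6.33 and 3.66 FPKM, a log2 fold change of -0.68 ± 0.54 (SE); Ndufa4 itself stood at 0.03 ± 0.18.

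The broadly expressed isoforms of complex IV dominated over the muscle isoforms in every library. Cox6a1 had mean levels of 348 FPKM in controls and 331 FPKM after PM2.5, and its heart and muscle counterpart Cox6a2 did not exceed 1.10 FPKM in any library. Cox7a2 stood at 208 and 211 FPKM on average and its muscle counterpart Cox7a1 at 1.89 and 1.87 FPKM, and the testis form Cox8c did not exceed 0.399 FPKM. The log2 fold changes of Cox6a1 (-0.08), Cox6b1 (-0.14), Cox7a2 (0.01), Cox7a2l (0.00), Cox7b (-0.09) and Cox7a1 (-0.03) were each smaller than their SE. No row carried the name Cox6b2, Cox7b2, Cox8a or Cox8b, so these forms could not be followed. Striated muscle markers summed to at most 16.4 FPKM in any library.

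Nuclear subunits tended to move together between libraries of the same group. Of the 38 with an effective length of at most 1343 bases, 36 were lowest among the controls in replicate 2 and 30 were lowest among the PM2.5 libraries in replicate 1. Of the 37 longer ones, 28 were lowest in control replicate 2, but 17 were highest, and 14 lowest, in PM2.5 replicate 1. The log2 ratio of summed shorter to summed longer subunits was 0.648, 0.438 and 0.540 in controls and 0.0537, 0.508 and 0.483 after PM2.5, so that PM2.5 replicate 1 stood far below the other 5 libraries. The shorter subunits had a median log2 fold change of -0.07, with 26 of 38 below 0, and the longer ones 0.03, with 14 of 37 below 0. Across the 75 subunits, log2 fold change and log2 length had r 0.15 and rho 0.33, against r 0.03 and rho 0.01 over all 15303 genes. Of the 8 subunits that lay apart and higher, Sdhb, Uqcrc2, Atp5pb, Atp5f1a and Ndufs4 had their highest value in that library. In PM2.5 replicate 1 smooth muscle markers summed to 563 FPKM and erythroid markers to 1035 FPKM, both above the controls. Replicate 2 was higher in both lists, at 1041 and 1354 FPKM. Within the PM2.5 group, replicate 1 had the highest luteal sum, 9359 FPKM against 5513 and 4658 FPKM. It had the lowest granulosa sum, 1035 FPKM against 2733 and 3275 FPKM. The part of these cell types in the subunit values was not tested.

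The 11 rows classed as copies and 4 rows annotated as noncoding varied in level, and none had groups that lay apart. Among the 13 of them that were tested, log2 fold changes ran from -0.67 ± 0.75 (SE, Ndufv3-ps1) to 0.48 ± 1.18 (SE, Ndufs6, a row annotated as noncoding), and none had an unadjusted p below 0.05. The noncoding Atp5mc1 row on the - strand of chromosome 10 averaged 37.4 FPKM in controls and 44.0 FPKM after PM2.5. Ndufs6l1, classed as a copy by its name alone, averaged 15.5 and 17.5 FPKM. Its effective length of 1127 bases is a small part of its span of 8626 bases, and whether it is a working gene was not examined. Copies can share near-identical sequence with their parent genes, and how the counting treated such reads was not given. Of the nuclear subunits, 28 overlap another row of the table, 7 of them on the same strand.

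Genes that make, read or assemble the chain were taken from lists of known function. In mitochondrial transcription and RNA handling, 24 genes were tested, 14 below 0 and 10 above, with a median log2 fold change of -0.10, and none passed the adjusted threshold. At an unadjusted p below 0.05 stood 5 (20.8%), beside 20.9% of all tested genes. The groups lay apart for 7 higher and 5 lower of the 24 (50%), beside 27.2% of all tested genes. Mterf1, which binds within a tRNA gene and ends transcription there, stood at 9.54, 6.72 and 7.26 FPKM in controls and 3.01, 2.59 and 3.86 FPKM after PM2.5, all lower. Its log2 fold change was -1.32 ± 0.24 (SE), with an adjusted p of 0.0616 by edgeR (quasi-likelihood test, Benjamini-Hochberg adjustment). Lrpprc, which holds mitochondrial mRNAs stable, stood at 0.41 ± 0.12, its partner Slirp at -0.29 ± 0.28, the processing enzyme subunit Hsd17b10 at 0.40 ± 0.13 and Fastkd3 at 0.57 ± 0.17 (log2 fold change, SE). The rRNA methyltransferase Tfb1m was at -0.84 ± 0.27, whereas the mitochondrial RNA polymerase Polrmt (-0.12 ± 0.15) and the packaging factor Tfam (0.05 ± 0.18) differed by less than their SE.

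In mitochondrial DNA replication, 10 of 11 genes were below 0, with a median log2 fold change of -0.40, none passed the adjusted threshold, and 3 had an unadjusted p below 0.05, all lower. With 11 genes those 3 are 27.3%, beside 20.9% of all tested genes. These were Dguok, a kinase that salvages deoxynucleosides (-0.79 ± 0.16, SE), Rrm2b, a ribonucleotide reductase subunit (-0.82 ± 0.31), and Polg, the replicative polymerase (-0.46 ± 0.17). The groups lay apart for 6 lower and 1 higher of the 11 (63.6%), beside 27.2% of all tested genes. Mitochondrial DNA itself was not measured.

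Assembly factors of complexes II to V held 1 called gene, Coa4, a complex IV assembly factor, lower after PM2.5. It stood at 4.89, 3.83 and 5.35 FPKM in controls and 1.72, 1.43 and 1.49 FPKM after PM2.5, with no overlap. Its log2 fold change was -1.61 ± 0.24 (SE), with an adjusted p of 0.0442 by edgeR (quasi-likelihood test, Benjamini-Hochberg adjustment). The call was lost with any single library left out (adjusted p 0.0661 to 0.237) and without a filter on low values (0.0565), while the direction held. Of the 31 tested, 22 were below 0, with a median of -0.24. The groups lay apart for 3 higher and 7 lower (32.3%), beside 27.2% of all tested genes. At an unadjusted p below 0.05 stood 4 (12.9%, beside 20.9% of all tested genes). These 4 were lower: Coa4, Bcs1l, which inserts the Rieske protein into complex III (-1.11 ± 0.21), Coa6, a complex IV factor (-0.97 ± 0.26), and Ttc19, a complex III factor (-0.83 ± 0.23). Of the 15 complex I assembly factors, 9 were below 0, with a median of -0.01, and 3 (20%) had an unadjusted p below 0.05; Acad9 was at 0.60 ± 0.19, Foxred1 at -0.53 ± 0.17 and Tmem186 at -0.84 ± 0.29, none past the adjusted threshold.

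Among 7 tested nuclear regulators, the median log2 fold change was -0.14 and none passed. Pprc1, a coactivator related to Ppargc1a, was at -0.58 ± 0.16, Nrf1 at 0.09 ± 0.14, Gabpa at 0.22 ± 0.19 and Esrra at -0.55 ± 0.39 (SE), and Ppargc1a and Ppargc1b lay below the level required for testing. The 7 tested carriers, porins and cytochrome c had a median of -0.07, with Slc25a5, an ADP/ATP carrier, at -0.31 ± 0.14. The 74 tested mitochondrial ribosome proteins had a median of -0.03, 40 below 0 and 34 above, and none passed; Mrpl42 (-0.50 ± 0.16) and Mrpl55 (-0.51 ± 0.20), 2.70% of the 74, had an unadjusted p below 0.05.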

How the data were processed

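Poly(A)-selected, strand-marked, paired-end libraries of 6 rat ovary samples were analysed as 3 against 3, grouped by their labelled treatment. For every library the authors deposited, in 1 table, each gene's read count and its FPKM. The submitters' processing notes name StringTie 2.1.6, HISAT2 2.2.1, cutadapt 1.9, edgeR and DESeq2. Strand setting, annotation and genome build were not given in the sources used here. The deposited counts were fitted with edgeR 4.0.16 (R 4.3.3; TMM scaling, quasi-likelihood, two-sided, Benjamini-Hochberg at 0.05) over the 15303 genes averaging 0.5 FPKM or more. Fold changes are log2 values computed here from the deposited counts, PM2.5 over control. DESeq2 1.42.0 and limma 3.58.1 on log2(FPKM + 1) were alternatives. Only the edgeR fit was tried on simulated counts, and its outcome is not reported here. Effective lengths were worked out from the ratio of counts to FPKM. Sequences were not used here.

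The members and the lists were chosen with earlier results of these data known. Named genes were all 13 mitochondrial mRNAs, every called member, the highest and lowest nuclear subunit of each complex (mean of at least 1 FPKM), core subunits and tissue isoforms whatever their values, and up to 4 genes of smallest p per other list with 8 regulators. Ndufs3, Ndufs4 and Ndufa3-ps3, the copies and the overlapping neighbours were added after their values were seen. No deposited sample column was left unused. The values of 1 member are not reported here; counts and sums over the members include it.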

Additional observations from a re-analysis of the deposited data

How the results depend on the processing

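Of the respiratory chain members, 1 was called as reported, 7 by DESeq2 (2 higher, 5 lower, among them Mt-nd4l, Mt-nd5, Mt-nd6, Ndufa3, Ndufab1 and Sdhb), 2 by limma on log2(FPKM + 1) (Ndufa3 among them), 0 without a filter on low values, 0 with edgeR's filterByExpr, and 0 with each library left out. Over all genes the 142 calls became 1767 by DESeq2, 8 without a filter, 87 with filterByExpr and 0 to 7 on leaving out 1 library; the cause was not tested. With the replicate number as a block, 1 gene and 0 members were called, and the mitochondrial median was -0.34. Same-numbered libraries had correlations of -0.30, 0.13 and -0.05, and not every library correlated best with its own number. No pairing by number was seen, but 3 libraries per group are too few to decide whether the numbers pair the samples. Members with an unadjusted p below 0.05 made up 5.45% to 11.8% over the settings, and all genes 12.4% to 23.9%. The mitochondrial median ran from -0.49 to -0.21 with a library left out (-0.21 without control replicate 1), and the nuclear median from -0.12 to 0.07. As mean log2(FPKM + 1), the mitochondrial to nuclear difference was -0.39 and that of complex I to other mitochondrial mRNAs -0.45, both larger than reported. Of 717 values of 45 named genes, none reversed a call, 17 (Ndufa3 and Coa4) lost it, 5 gained it, and 42 changed sign without a call in either fit. Depth limits Cox6a2, at no more than 1.10 FPKM in any library, with an SE of 1.21.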
